A study of Mus musculus with 77 samples.

Results

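The genes described here encode the factors that start and extend protein synthesis in the cytosol. They were chosen by name, as the genes whose symbol begins with Eif1 to Eif6, Eef1 or Eef2, leaving out symbols that begin with Eif2ak, Eif4ebp or Eef2k (kinases, the eIF4E-binding proteins and the methyltransferase gene Eef2kmt) and pseudogenes. This gave 56 of the 25214 genes with a symbol. They comprise 47 initiation factors, 5 elongation factors (Eef1a1, Eef1b2, Eef1d, Eef1g and Eef2), 3 methyltransferases that modify eEF1A (Eef1akmt1, Eef1akmt2 and Eef1akmt4) and Eef1e1, a protein of the multi-synthetase complex. The rule uses symbols only. Eef1a2, Eef1akmt3 and Eif4e1b were not analysed here.

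Livers came from mice of a C57BL/6J background, all adult males on a light-dark cycle with food at all times. Mice with a whole-body deletion of Aco1, which encodes the iron regulatory protein IRP1 (allele Aco1tm1.1Mwh), were set beside Aco1+/+ controls of their line, and mice lacking Ireb2, which encodes IRP2 (allele Ireb2tm1.2Mwh), beside Ireb2+/+ controls of theirs. Each of the 4 genotypes was collected at ZT5, in the light phase, and at ZT12, at the start of the dark phase, with 3 mice per group and 24 mice in all. Every liver gave a total RNA library and a library of ribosome-protected fragments (RPFs, the stretches of mRNA covered by a ribosome).

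In translation initiation, eIF2 brings the initiator tRNA to the small ribosomal subunit, eIF2B recharges eIF2 with GTP, eIF3 holds the complex together, and the eIF4 proteins bind the cap and unwind the 5' UTR. eIF1, eIF1A and eIF5 govern the choice of start codon. In elongation, eEF1A delivers aminoacyl-tRNAs, the eEF1B subunits (Eef1b2, Eef1d and Eef1g) recharge eEF1A, and eEF2 moves the ribosome along. The mRNAs of the elongation factors, like those of ribosomal proteins, are textbook examples of transcripts that begin with a terminal oligopyrimidine (TOP) tract, a C followed by a run of pyrimidines. In liver the translation of ribosomal protein mRNAs is known to depend on feeding, with an effect that is gated by the time of day.

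Counts in the coding sequence (CDS) ranged from 852293 to 3993492 per RNA library (median 2103622) and from 2448915 to 13439600 per RPF library (median 6784598). Aco1 RPFs lay between 74.8 and 123.2 CPM in the 6 Aco1-/- mice against 347.1 to 591 in the 6 Aco1+/+ mice, and Ireb2 RPFs between 32.5 and 41.2 in the Ireb2-/- mice against 62.3 to 81.4 in their controls. All 5 hepatocyte markers were detected, with a summed RNA level of 96237 to 154422 CPM, whereas the 4 Kupffer cell markers summed to 149.2 to 266, the 4 endothelial markers to 299 to 463, the 4 stellate markers to 339 to 559 and the 5 erythroid markers to 69.9 to 251. The 4 cholangiocyte markers stayed between 1.09 and 15.5, the 3 lymphocyte markers with a row at or below 2.10 with Ptprc at 0, the muscle marker Acta1 at or below 3.07, and the proliferation marker Mki67 between 2.92 and 13.2. In whole liver, fewer cells of a type and less RNA per cell cannot be told apart. The library numbers run in separate series for each line and timepoint, so that a timepoint within a line and its library series cannot be told apart either.

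Levels are given as CPM (normalised counts of the CDS scaled to a common library size) after upper-quartile scaling, and translation efficiency (TE) as log2 of the RPF level over the RNA level in the same mouse. A TE of 0 is set by the scaling and does not mark equal amounts of RNA and footprints. Of the 56 genes, 53 passed the filter on low counts, among them all 5 elongation factors and 44 initiation factors. Those below it were Eif5a2, Eif3j1 and Eif3j2. Eif5a2, a paralogue of Eif5a, had at most 3 CDS counts in any RNA library. Eif3j1 and Eif3j2, near-identical copies of a loosely bound eIF3 subunit, had 0 CDS counts in all RNA libraries, and Eif3j1 alone had 3' UTR counts (33.7 per RNA library, range 10 to 76).

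Initiation and elongation factors differed in where they stood on the TE scale. Over the 24 mice, the median of the mean TE values was -0.58 for the 5 elongation factors and 0.35 for the 44 initiation factors, against 0.08 for all 10696 genes tested (quartiles -0.59 and 0.59). The initiation factors with the highest TE were Eif1b (1.26 ± 0.53, SD over 24 mice), Eif1 (1.18 ± 0.52), Eif5a (1.16 ± 0.32), Eif4h (1.05 ± 0.15) and Eif1ax (1.01 ± 0.41). Eif1 and its close copy Eif1b guard the accuracy of start codon selection, Eif1ax encodes eIF1A, Eif4h assists the eIF4A helicase, and eIF5A helps ribosomes through difficult peptide bonds in spite of its name. By its symbol, Eif5a was counted with the initiation factors throughout. Neighbours among these 5 genes differed by less than their SD. The lowest were Eif4g2 (-2.10 ± 0.19), Eif4enif1 (-1.09 ± 0.36), Eif5 (-0.74 ± 0.37), Eif2d (-0.71 ± 0.29) and the elongation factor Eef1b2 (-0.59 ± 0.77).

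Eif4g2, a relative of the scaffold eIF4G that does not bind the cap-binding protein and whose own reading frame starts at a non-AUG codon, stood apart. Its TE lay between -2.34 and -1.48 in the 24 mice, below that of Eif4enif1, which carries eIF4E into the nucleus (-1.57 to -0.11), in the mean by more than the SD of either gene. Only 2.52% of the genes tested had a lower mean TE. Further elongation factors were close to Eef1b2 in the mean: Eef1a1 (-0.58 ± 0.81), Eef1g (-0.58 ± 0.59) and Eef2 (-0.31 ± 0.81). Of the 5 genes counted as elongation factors, Eef1d (0.39 ± 0.40) alone lay above the median of all genes. The SDs of Eef1a1, Eef2 and Eef1b2 were wider than those of all but 2 of the other 50 genes, Eef1akmt2 (0.97) and Eif4e3 (1.23), both of which have low counts.

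**Figure D1:**
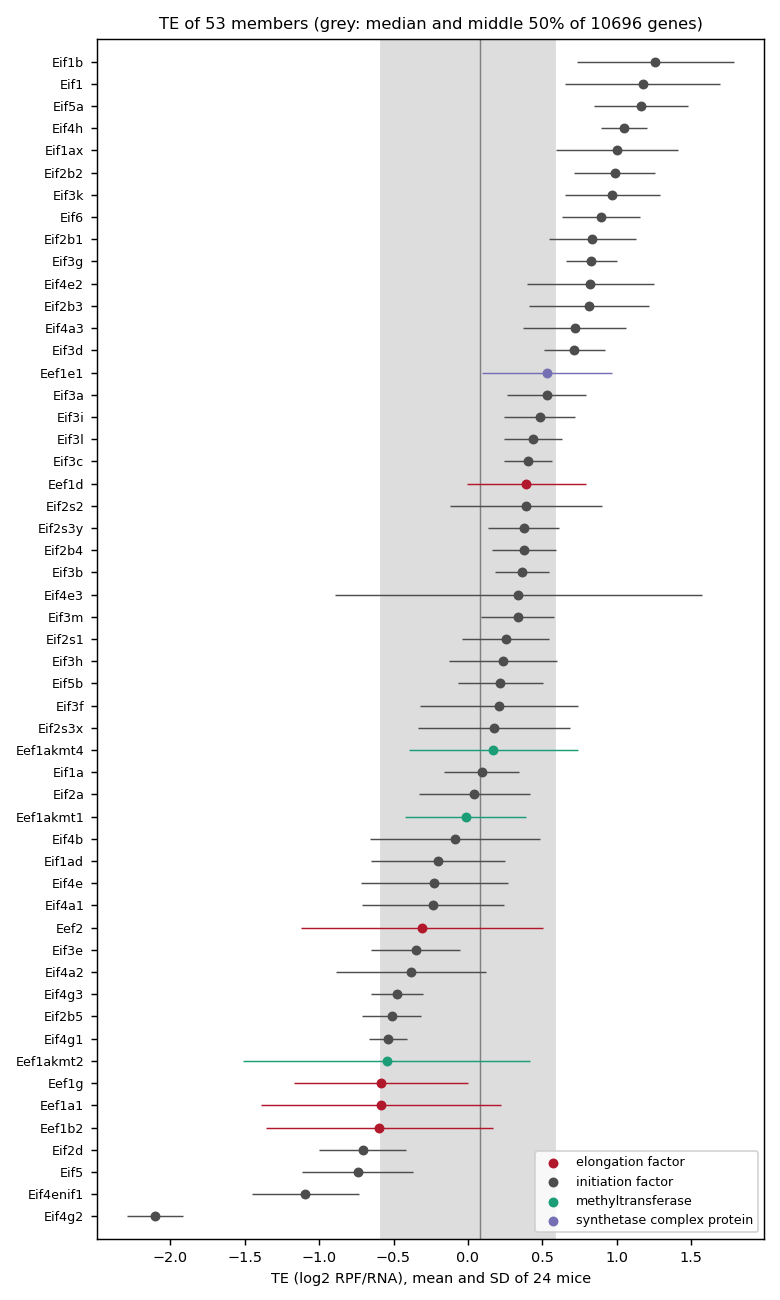
Mean TE (log2 RPF/RNA, horizontal axis) of the 53 genes that passed the filter, with bars for the SD over 24 mice, ordered from highest to lowest and coloured by role; the grey line and band are the median and the interquartile range of all 10696 genes. Elongation factors other than Eef1d (red) sit below the median line with wide bars, and Eif4g2 lies alone at the bottom, at -2.10.

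The elongation factors differed between timepoints. Footprints on all 5 rose from ZT5 to ZT12, averaged over the 4 genotypes, where 31.8% of all genes changed and 13.6% rose, whereas RNA rose in 2 of them, where 22.3% of all genes changed and 9.71% rose. For Eef1a1, RPFs were 93.5, 294 and 509.6 CPM at ZT5 (lowest, median and highest of 12 mice) and 335, 624 and 1019 CPM at ZT12. Its RNA was 499, 532.1 and 622 CPM at ZT5 and 608, 666 and 822 CPM at ZT12. In each genotype, every ZT12 mouse had more Eef1a1 RNA than every ZT5 mouse, and RPFs did not overlap in 3 of the 4 genotypes. On the log2 scale the RPF level rose by 1.23 (SE 0.23, adjusted p = 0.000514) and the RNA level by 0.30 (SE 0.06, adjusted p = 0.000257, both by edgeR's quasi-likelihood test with Benjamini-Hochberg adjustment over all genes).

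Eef2 behaved in the same way. Its RPFs were 197, 619 and 1335 CPM at ZT5 and 689.8, 1459 and 1957 CPM at ZT12, again without overlap in 3 of the 4 genotypes. Its RNA was 926, 1016 and 1122 CPM at ZT5 and 1014, 1221 and 1332 CPM at ZT12. RPFs rose by 1.16 (SE 0.24, edgeR adjusted p = 0.00131) and RNA by 0.23 (SE 0.06, edgeR adjusted p = 0.00358). For the eEF1B subunits, the RPF level rose by 0.73 in Eef1b2 (SE 0.16, edgeR adjusted p = 0.00215), by 0.51 in Eef1g (SE 0.15, 0.00819) and by 0.25 in Eef1d (SE 0.09, 0.0365, a call lost in 13 of 30 alternative settings), while their RNA changes were -0.16, 0.27 and -0.18, none of them past the threshold. Eef1g was the least covered of the 5, with RPFs of 4.05 to 9.74 CPM at ZT5 and 4.31 to 15.1 CPM at ZT12.

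In TE, Eef1d alone of the elongation factors passed the test over all genes. The TE of Eef1d was -0.26, 0.19 and 0.67 at ZT5 (lowest, median, highest) and -0.04, 0.62 and 1.09 at ZT12, higher in the mean in 4 of 4 genotypes although the mice overlapped in each. Its TE rose by 0.45 (SE 0.11, edgeR adjusted p = 0.0323), a call that was lost in 17 of 31 alternative settings, among them the omission of any of 13 of the 24 mice. The TE change was 1.03 in Eef2 (SE 0.23, edgeR adjusted p = 0.0584), 0.97 in Eef1a1 (SE 0.23, 0.0800), 0.91 in Eef1b2 (SE 0.22, 0.0761) and 0.26 in Eef1g (SE 0.19, 0.745). Over the same settings a call was gained in 7 for Eef2, in 5 for Eef1a1 and in 4 for Eef1b2, and with the replicate number as a block Eef1a1 (edgeR adjusted p = 0.0239) and Eef2 (0.0380) passed and Eef1d (0.0503) did not. Where each gene is taken as a single value and the timepoint label is permuted within genotypes (exact two-sided test, 160000 arrangements, 10 tests on RNA and TE of the 5 genes), the TE difference had p = 0.000213 in Eef2, 0.00136 in Eef1b2, 0.00198 in Eef1d, 0.00209 in Eef1a1 and 0.422 in Eef1g.

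The TE of single mice is given for Eef2. In Ireb2+/+ livers Eef2 TE was -2.00, -1.26 and -0.33 at ZT5 and 0.66, 0.47 and 0.18 at ZT12, and in Ireb2-/- livers -2.30, -1.09 and -0.75 against -0.05, 0.07 and -0.69. In Aco1-/- livers it was -1.29, -0.09 and -0.21 against 0.37, 0.44 and 0.55, and in Aco1+/+ livers -0.74, -0.09 and 0.30 against -0.30, 0.69 and 0.13. The timepoints did not overlap in Aco1-/-, Ireb2+/+ and Ireb2-/- mice and overlapped in Aco1+/+ mice. Fitted within one genotype, the TE change of Eef2 ranged from 0.35 (SE 0.39) in Aco1+/+ to 1.63 (SE 0.50) in Ireb2+/+, and that of Eef1a1 from 0.16 (SE 0.50) in Aco1+/+ to 2.00 (SE 0.42) in Ireb2+/+, with edgeR adjusted p-values between 0.142 and 1.00.

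**Figure D2:**
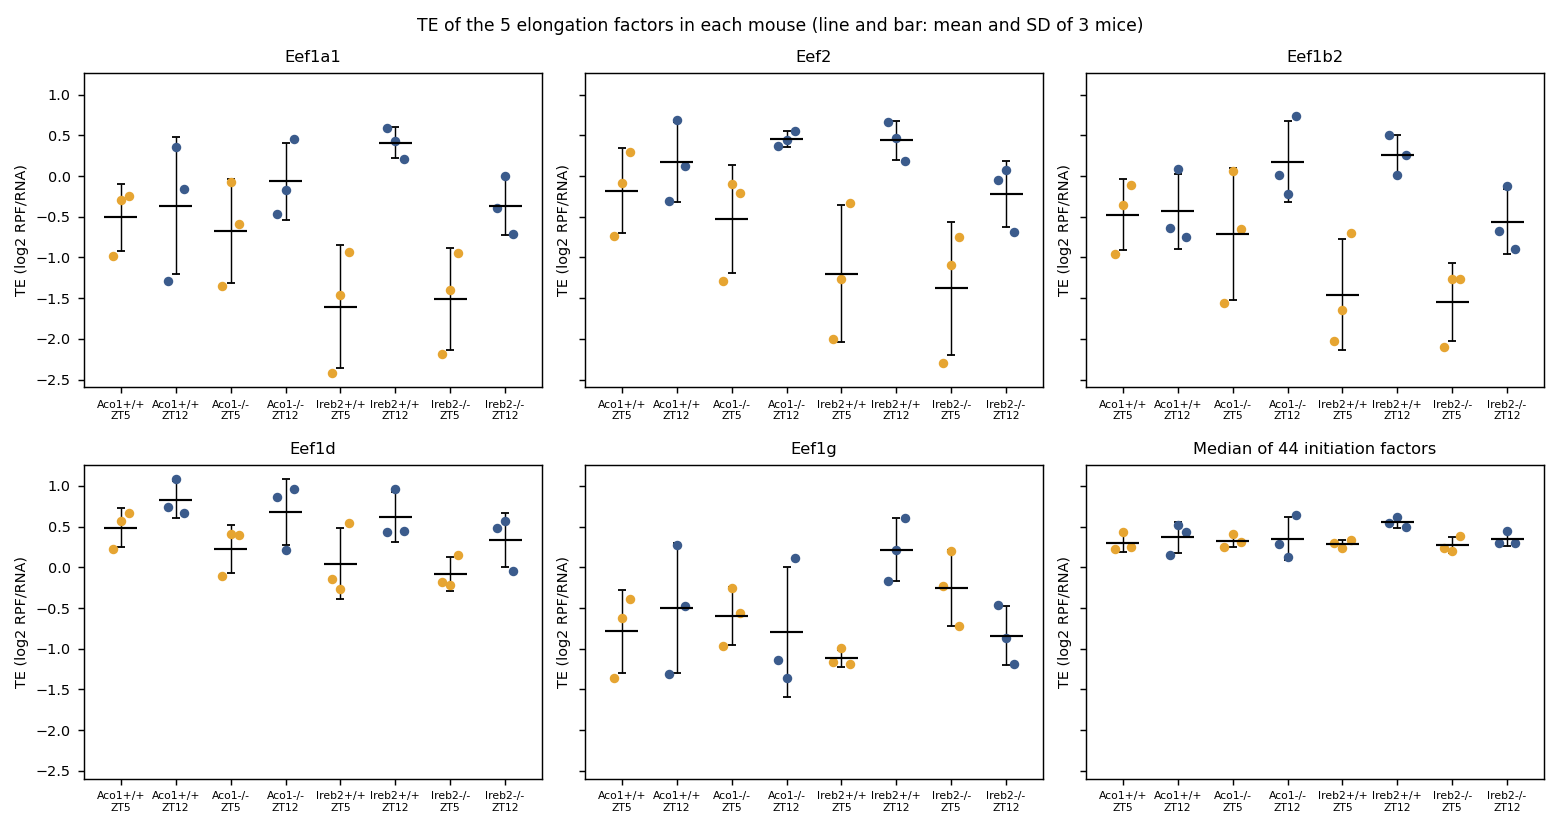
TE (log2 RPF/RNA) of each elongation factor, and the median TE of 44 initiation factors, in each mouse (points: orange ZT5, blue ZT12), with the mean and SD of 3 mice per group. Eef1a1, Eef2 and Eef1b2 lie lowest in the Ireb2+/+ and Ireb2-/- mice at ZT5, reaching -2.42, -2.30 and -2.10, while the median of the initiation factors stays between 0.12 and 0.64 in all 24 mice.

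Set against the median of the initiation factors in the same mouse, the median of the elongation factors was lower at ZT5 and closer at ZT12. The median TE of the 5 elongation factors minus that of the 44 initiation factors was -2.34, -1.16 and -0.36 at ZT5 (lowest, median and highest of 12 mice) and -1.02, -0.29 and -0.03 at ZT12. The elongation median was thus below the initiation median in all 24 mice. By group, the difference was -0.76 ± 0.42 (SD, n = 3) at ZT5 and -0.51 ± 0.32 at ZT12 in Aco1+/+, -0.97 ± 0.54 and -0.22 ± 0.11 in Aco1-/-, -1.61 ± 0.65 and -0.15 ± 0.11 in Ireb2+/+, and -1.59 ± 0.65 and -0.72 ± 0.29 in Ireb2-/- mice. The mean change over the genotypes was 0.83, made up of 0.94 in the elongation factors and 0.11 in the initiation factors. The pooled SD between mice of a group was 0.44. Single genes did not all follow the medians: over the 24 mice the mean TE of Eef1d (0.39) was above the initiation median (0.35). These are descriptions, with no test over the genes.

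Annotated transcript starts are shown for 3 elongation and 2 initiation factors whose footprints rose most among those with a listed start, since a TOP tract is the sequence by which such mRNAs are known. Each line gives 30 bases of RefSeq sequence (GRCm38.p6), 5 before and 25 from the annotated start, 5' to 3' on the transcript strand, and capitals mark a C followed by at least 4 pyrimidines.
Eef1a1, chr9:78481700-78481729, minus strand: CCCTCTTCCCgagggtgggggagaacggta
Eef2, chr10:81176626-81176655, plus strand: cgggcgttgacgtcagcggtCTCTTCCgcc
Eef1b2, chr1:63176826-63176855, plus strand: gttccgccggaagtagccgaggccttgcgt
Eif4b, chr15:102073768-102073797, plus strand: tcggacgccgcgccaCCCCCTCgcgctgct
Eif3f, chr7:108934410-108934439, plus strand: gCTCTCTCTCTTTCTCggcaagatggcttc
In Eef1a1 and Eif3f the tract begins within 3 bases of the annotated start or runs across it, in Eef2 and Eif4b it lies further downstream, and in Eef1b2 these letters are not in the window. A tract whose C lies at most 3 bases from the start was found in 9 genes of the set (Eef1a1, Eif1ad, Eif2b5, Eif2s3x, Eif2s3y, Eif3b, Eif3f, Eif3l and Eif4g1), in 16.1% of their 56 listed starts, against 11.5% of all 32851 starts and 35.8% of the 67 listed starts of ribosomal protein genes. Only the sense strand was searched, 44 of the 56 genes had a listed start, and annotated starts need not be those used in liver.

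Among all genes tested, 31.8% changed in RPFs, 22.3% in RNA and 0.486% in TE between the timepoints, averaged over the 4 genotypes. Of the 53 translation factor genes, 22 changed in RPFs, 20 of them upward and 2 downward, where 13.6% of all genes rose and 18.2% fell. In RNA 6 changed, 5 upward and 1 downward, where 9.71% of all genes rose and 12.5% fell. In TE 1 rose, Eef1d, where 0.365% of all genes rose. The median RPF change was 0.73 for elongation factors and 0.12 for initiation factors, beside -0.04 for all genes and 0.68 for 75 cytosolic ribosomal protein mRNAs, of which 62 rose. The median TE change was 0.91, 0.08, 0.01 and 0.69 in the same order, and 0.08 for 19 aminoacyl-tRNA synthetases.

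Among initiation factors, 15 of 44 rose in RPFs and none fell, where 13.6% of all genes rose and 18.2% fell. Of the 12 eIF3 subunits measured, 6 rose: Eif3f, by 0.63 (SE 0.10, edgeR adjusted p = 3.96e-05), Eif3e, by 0.41 (SE 0.07, 4.14e-05), Eif3l, by 0.30 (SE 0.06, 0.000185), Eif3h, by 0.29, Eif3m, by 0.22, and Eif3k, by 0.16 (edgeR adjusted p = 0.0474, lost in 17 of 30 alternative settings). Eif3f RPFs were 35.6, 56.2 and 97.3 CPM at ZT5 and 55.7, 88.5 and 123.4 CPM at ZT12, with no overlap between timepoints in 3 of the 4 genotypes. Eif3l RPFs did not overlap in any of the 4, with 111.6, 127 and 144.6 CPM at ZT5 against 133.4, 159.8 and 174 CPM at ZT12 over all mice. The TE change was above 0 in all 12 subunits (0.01 to 0.52), where it was above 0 in 5623 of all 10696 genes. It passed the threshold in none of the 12, with the lowest adjusted p in Eif3k (0.35, SE 0.09, edgeR adjusted p = 0.0634). For Eif3a, the largest subunit, the values were 0.13 in RPFs and 0.16 in TE, neither past the threshold.

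In the eIF4 group, 4 of 12 genes rose in RPFs, where 13.6% of all genes did. Eif4b, whose product stimulates the eIF4A helicase, rose by 0.54 (SE 0.16, edgeR adjusted p = 0.0160), from 69.4, 126 and 235 CPM at ZT5 to 117, 184 and 295 CPM at ZT12. Its TE was -1.23, -0.41 and 0.69 at ZT5 and -0.37, 0.33 and 0.55 at ZT12, and the change of 0.71 did not pass the threshold (SE 0.16, edgeR adjusted p = 0.0552). In 3 of the 4 genotypes the TE values did not overlap, and in Aco1+/+ they did (-0.33, 0.09 and 0.69 against -0.14, 0.51 and 0.05). Eif4b had the highest TE change of the 44 initiation factors. The scaffold genes Eif4g1 and Eif4g2 rose in both measures, by 0.26 in RPFs each (SE 0.06, edgeR adjusted p = 0.000607 and 0.00133) and by 0.20 in RNA each (SE 0.06 and 0.07, 0.00849 and 0.0265), of which the RNA calls were lost in 1 and 6 of 30 alternative settings. The cap-binding factor Eif4e was at -0.12 in RPFs and -0.24 in RNA, neither past the threshold.

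Eif4a1 and Eif4a2 encode near-identical helicases, and their values are uncertain. CDS counts of Eif4a1 averaged 52.6 per RNA library and 92.4 per RPF library, while a count column whose meaning could not be identified held 1350 and 664. For Eif4a2 the CDS held 414 RNA counts against 4259 in that column, and for Eif4g2 1976 against 2156. Over all genes the column holds 11.7% of RNA and 3.23% of RPF counts. In the CDS column Eif4a1 rose by 0.33 in RPFs (SE 0.09, edgeR adjusted p = 0.00730), and with all columns summed the change turned to -0.96 (edgeR adjusted p = 0.000697). Eif4a2 had a TE change of 0.49 (SE 0.17, edgeR adjusted p = 0.323). Eif1 and Eif1b, and Eif2s3x and Eif2s3y, are further pairs whose reads the counting could have split.

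Of the remaining initiation factors, Eif2a rose by 0.51 in RPFs (SE 0.08, edgeR adjusted p = 2.40e-05), from 27.1, 39.8 and 50.5 CPM at ZT5 to 38.8, 57.7 and 71.1 CPM at ZT12. It encodes an alternative carrier of initiator tRNA and is not a subunit of eIF2. Of the 5 eIF2B genes, Eif2b1 rose by 0.33 (SE 0.07, 0.000948) and Eif2b3 by 0.38 (SE 0.10, 0.00359, both edgeR adjusted p), where 13.6% of all genes rose. None of the 4 eIF2 genes passed the threshold in any measure: RPF changes were -0.03 in Eif2s1, 0.14 in Eif2s2, 0.07 in Eif2s3x and 0.02 in Eif2s3y. Eif5, the GTPase-activating partner of eIF2, rose by 0.28 (SE 0.11) and Eif1ad, which carries an eIF1A-like domain, by 0.32 (SE 0.12), with edgeR adjusted p-values of 0.0420 and 0.0406, and each call was lost in 15 of 30 alternative settings. Eif5a rose in RNA by 0.23 (SE 0.08, edgeR adjusted p = 0.0262) without an RPF change past the threshold (0.18), and the RNA call was lost in 7 of 30 alternative settings. Eif6, which keeps the large ribosomal subunit from joining early, had values of 0.23 in RNA and 0.11 in RPFs, and Eif1 of 0.19 and 0.13, none past the threshold.

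Eef1akmt1 and Eef1akmt2 encode methyltransferases of eEF1A. Eef1akmt1 fell by 0.66 in RNA (SE 0.18, edgeR adjusted p = 0.00782) and by 0.70 in RPFs (SE 0.13, edgeR adjusted p = 0.000124), from 5.66, 7.88 and 14.5 CPM of RPFs at ZT5 to 2.88, 4.94 and 7.68 CPM at ZT12, without overlap in 3 of 4 genotypes. Eef1akmt2 fell by 0.63 in RPFs (SE 0.23, edgeR adjusted p = 0.0421) at levels of 0.72 to 5.01 CPM, with an RNA change of -0.06, and its call was lost in 17 of 30 alternative settings. Eef1akmt4 and Eef1e1 had RPF changes of 0.06 and 0.29, neither past the threshold, although Eef1e1 RPFs rose by 0.79 within Ireb2-/- mice (SE 0.23, edgeR adjusted p = 0.0480).

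**Figure D3:**
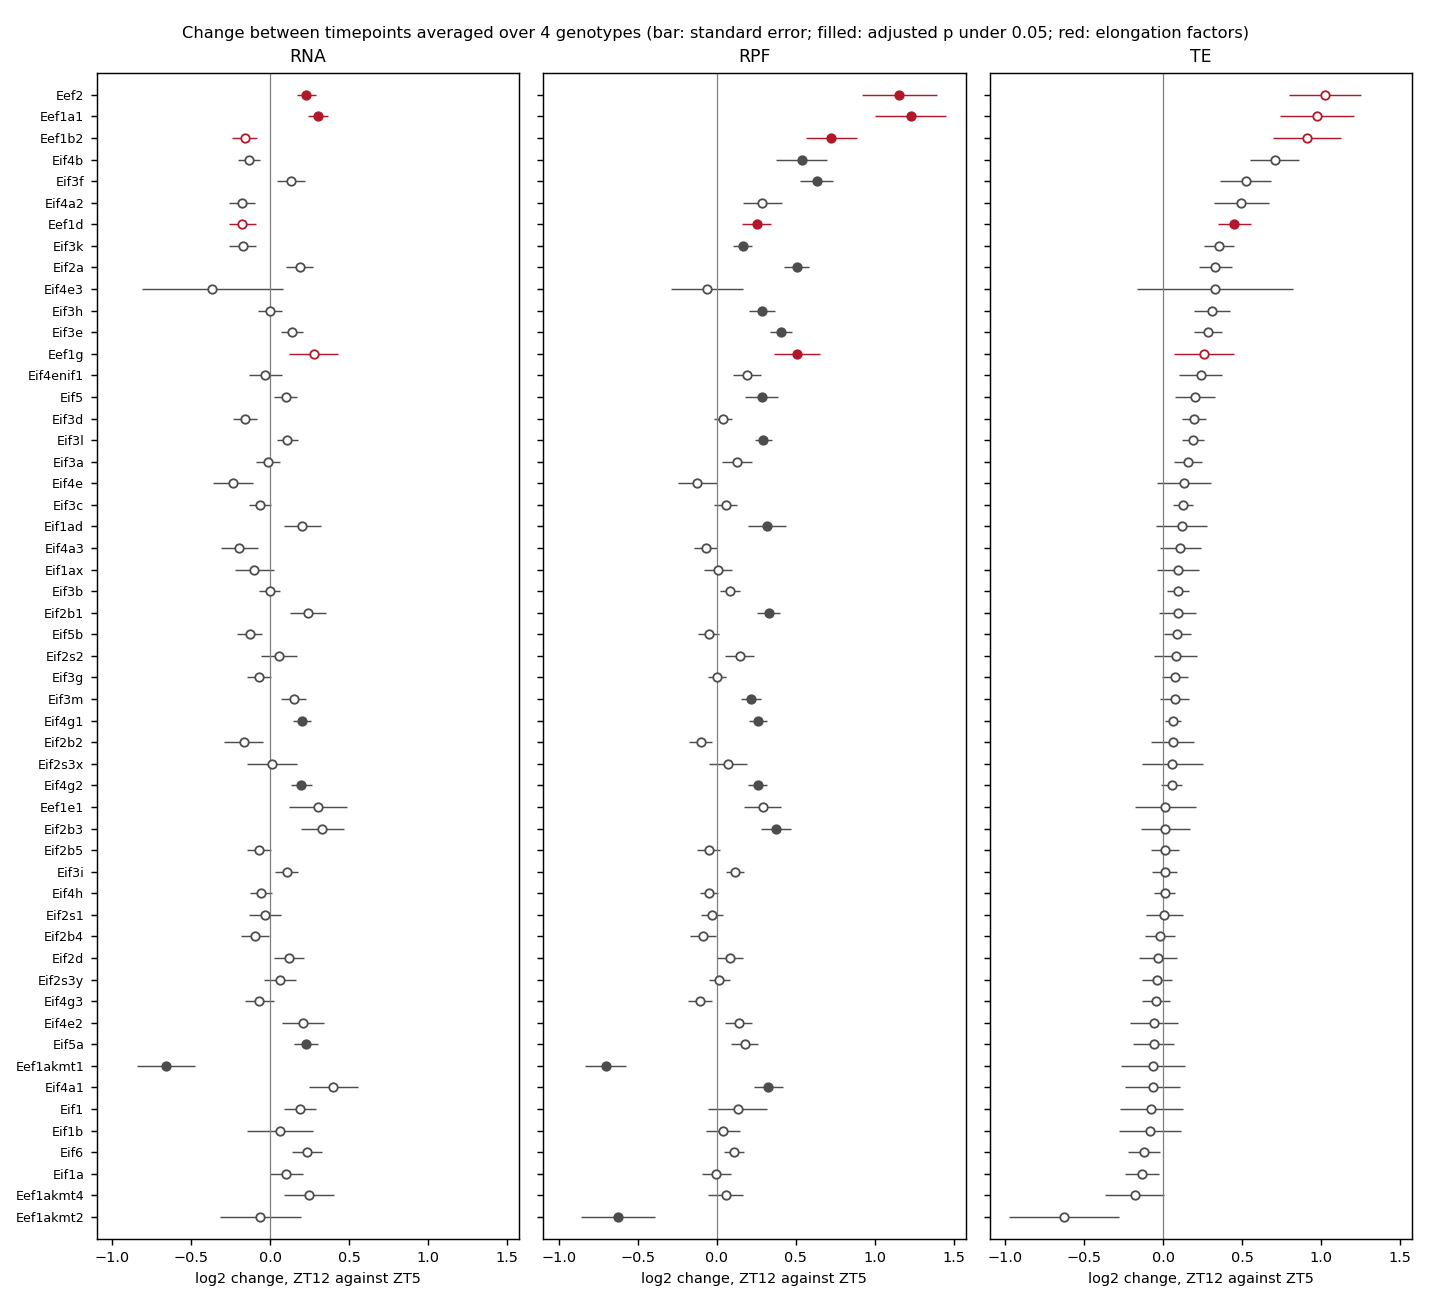
Log2 change from ZT5 to ZT12 averaged over 4 genotypes (horizontal axes, with standard error) in RNA, RPFs and TE for the 53 genes, ordered by TE change; filled points passed edgeR's adjusted p of 0.05 and elongation factors are red. The 5 elongation factors are all to the right in RPFs, from 0.25 to 1.23, and the single filled point in TE is Eef1d, at 0.45.

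Genes that act on these factors were followed as a separate list of 34, of which 33 had counts. Between the timepoints 15 rose and 4 fell in RPFs (13.6% and 18.2% of all genes), 11 rose and 1 fell in RNA (9.71% and 12.5%), and none changed in TE (0.486%). Of the 3 eIF4E-binding proteins, Eif4ebp3 rose by 2.23 in RNA (SE 0.39, edgeR adjusted p = 8.81e-05) and 2.20 in RPFs (SE 0.23, 6.01e-07), whereas Eif4ebp1 (RPF change 0.21, edgeR adjusted p = 0.153) and Eif4ebp2 (-0.25, 0.0772) did not pass the threshold, although Eif4ebp2 RPFs fell by 0.72 within Aco1+/+ mice (SE 0.20, edgeR adjusted p = 0.0342). Pdcd4, which sequesters eIF4A, fell by 0.76 in RNA (SE 0.09, edgeR adjusted p = 2.31e-07) and by 0.93 in RPFs (SE 0.06, 7.44e-12). Among the kinases of the list that target the factors, Mknk1 and Mknk2, which phosphorylate eIF4E, rose in RNA and RPFs by 0.35 and 0.28 and by 0.83 and 0.60, Rps6kb1, whose product phosphorylates eIF4B, by 0.30 and 0.38, Eef2k, which inactivates eEF2, by 0.64 and 0.53, and Eif2ak3, an eIF2 kinase of the endoplasmic reticulum, by 0.55 and 0.41. Eif2ak4, the eIF2 kinase that senses uncharged tRNA, fell by 0.43 in RPFs, and the other eIF2 kinases, Eif2ak1 (RPF change -0.15, edgeR adjusted p = 0.0943) and Eif2ak2 (-0.11, 0.321), did not pass the threshold. Among other mRNAs known to carry TOP tracts, RPFs rose by 1.46 in Pabpc4, 1.00 in Pabpc1, 0.83 in Tpt1 and 0.76 in Rack1 (edgeR adjusted p from 3.92e-07 to 0.00853), whereas Larp1, which binds the cap of TOP mRNAs, fell by 0.22 (SE 0.07, 0.0157).

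TE of Eef1a1, Eef1b2 and Eef2, but not detectably that of Eef1d and Eef1g, moved with that of the ribosomal proteins from mouse to mouse. The median TE of the ribosomal protein mRNAs was -1.91, -0.85 and -0.28 at ZT5 (lowest, median, highest) and -0.90, -0.18 and 0.37 at ZT12. With each mouse expressed as its deviation from its group mean, Pearson's r over 24 mice was 0.865 for Eef1a1 (adjusted permutation p = 0.00760), 0.759 for Eef1b2 (0.0135), 0.749 for Eef2 (0.0156), 0.558 for Eef1d (0.0763) and 0.306 for Eef1g (0.290), with Spearman's rho of 0.858, 0.678, 0.746, 0.484 and 0.201. The rho values had adjusted permutation p of 0.00760, 0.0262, 0.0135, 0.111 and 0.485, and without the 2 mice farthest from the median r was 0.830, 0.686, 0.673, 0.422 and 0.236. Within the Aco1 and the Ireb2 line r was 0.843 and 0.897 for Eef1a1, 0.733 and 0.798 for Eef1b2, 0.631 and 0.847 for Eef2, 0.442 and 0.661 for Eef1d and 0.740 and -0.42 for Eef1g. Both quantities come from the same libraries.

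Of 10 relations of the 5 genes with 2 measures of library composition, 1 for Eef2 and 1 for Eef1b2 had an adjusted permutation p under 0.05 for r. The share of RNA counts in the CDS was 48.3%, 58.1% and 66.7% at ZT5 and 54.9%, 60.5% and 63.8% at ZT12 (lowest, median, highest), and over the 24 mice it correlated with the TE of Eef2 (r = 0.740, adjusted permutation p = 0.0156; rho = 0.734, 0.0146), with r = 0.630 without the 2 farthest mice and 0.616 and 0.884 within the Aco1 and the Ireb2 line. The share of RPF counts in the 5' UTR was 1.2%, 2.26% and 3.19% at ZT5 and 1.48%, 1.92% and 2.60% at ZT12. It correlated with the TE of Eef1b2 (r = -0.69, adjusted permutation p = 0.0135; rho = -0.72, 0.0124), with r = -0.69 without the 2 farthest mice and -0.67 and -0.74 within the Aco1 and the Ireb2 line. For Eef2 the relation with the same share had r = -0.60 (adjusted permutation p = 0.0579) and rho = -0.60 (0.0477), with r = -0.57 without the 2 farthest mice and -0.67 and -0.56 within the lines. Of the 20 relations computed, none with RPF depth had an adjusted permutation p under 0.05. The part of these library measures in the change between timepoints was not tested.

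The change between timepoints was not the same in both lines, a comparison added after the values were seen. Taking the change in the Ireb2 line minus that in the Aco1 line, 6 of the 53 genes passed the threshold in RPFs, all with a positive difference, where 3.19% of all genes did and 2.19% with a positive one. In TE 1 passed (0.0841% of all genes, 0.0654% with a positive difference) and in RNA none (0.00935% of all genes). At an unadjusted p under 0.05 in RNA (edgeR) there were 3 of the 53 genes, and 932 of all 10696. All 6 genes called in RPFs are initiation factors. Eif2s2, the beta subunit of eIF2, had RPFs of 16.1, 22.3 and 22.3 CPM at ZT5 and 19.5, 16.8 and 23.7 CPM at ZT12 in Aco1+/+ mice, and 24.6, 23.0 and 25.3 against 18.2, 12.8 and 16.1 in Aco1-/- mice. In Ireb2+/+ mice they were 14.7, 18.2 and 14.4 against 30.01, 31.7 and 24.5, and in Ireb2-/- mice 23.3, 17.1 and 20.6 against 22.8, 22.6 and 30.9. RPFs were thus lower at ZT12 without overlap in Aco1-/- and higher without overlap in Ireb2+/+ mice, and the difference between the lines was 0.91 in RPFs (SE 0.18, edgeR adjusted p = 0.00730) and 1.25 in TE (SE 0.28, edgeR adjusted p = 0.0426).

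The others were Eif4a1 (0.99, SE 0.18), subject to the uncertainty above, the eIF3 genes Eif3h (0.74, SE 0.17), Eif3i (0.55, SE 0.11) and Eif3m (0.55, SE 0.13), and Eif4h (0.41, SE 0.11), with edgeR adjusted p-values from 0.00498 to 0.0473. The call for Eif4h was lost in 24 of 29 alternative settings and the TE call for Eif2s2 in 17 of 29. Eif3h RPFs were 44.2, 60.4 and 69.0 CPM at ZT5 and 113, 100.1 and 91.4 CPM at ZT12 in Ireb2+/+ mice, but 61.2, 85.3 and 74.5 against 57.5, 60.8 and 81.3 CPM in Aco1-/- mice. The former did not overlap and the latter did. For elongation factors the same difference in RPFs was 1.18 in Eef1b2 (SE 0.32, edgeR adjusted p = 0.0534), 0.63 in Eef1d (SE 0.18, 0.0536), 1.02 in Eef1a1 (SE 0.45, 0.220), 0.78 in Eef2 (SE 0.47, 0.389) and 0.54 in Eef1g (SE 0.29, 0.319).

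**Figure D4:**
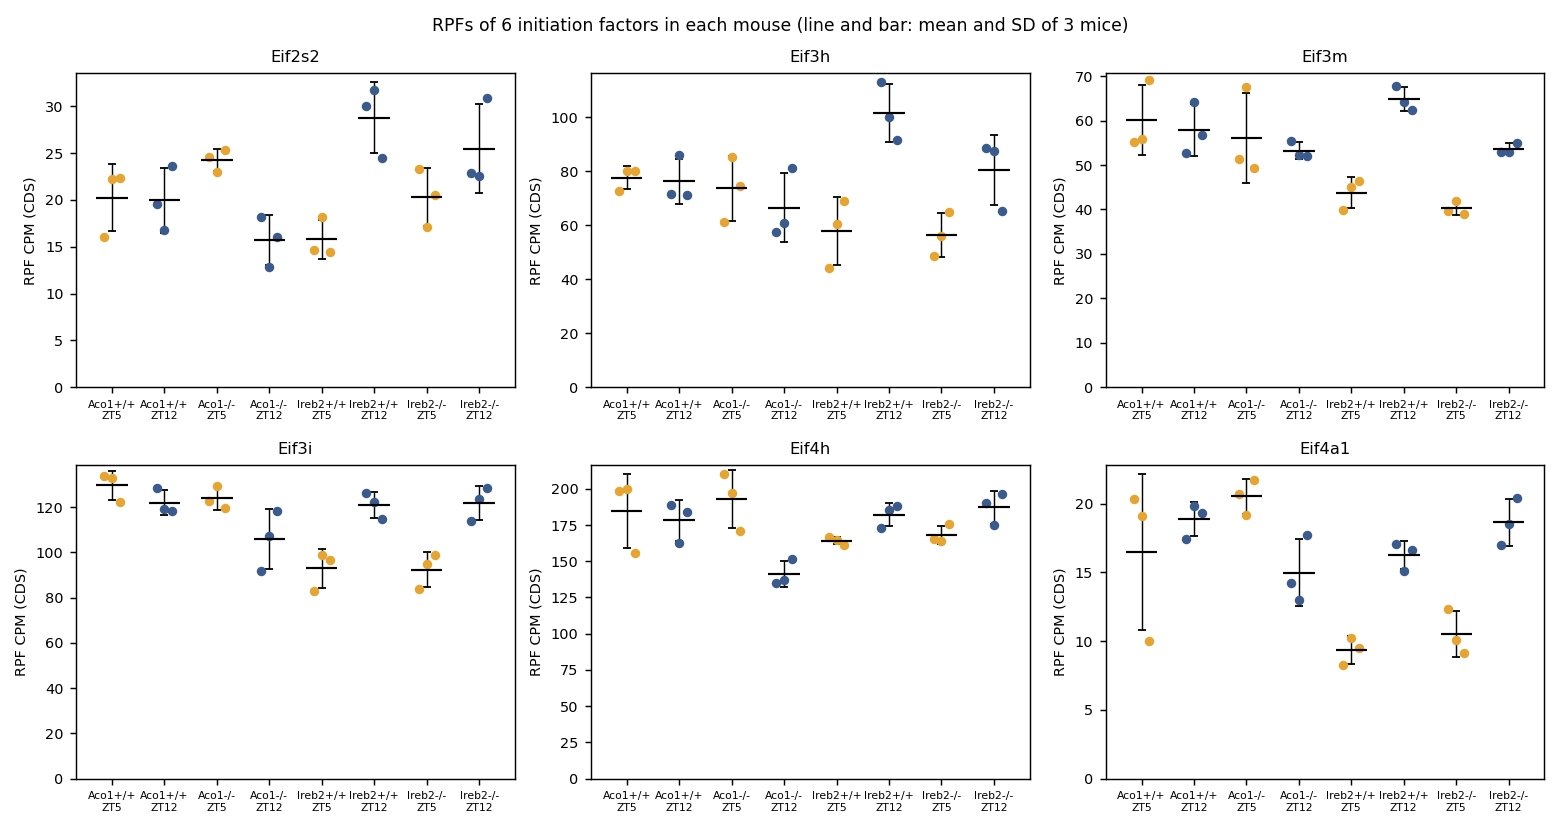
RPF level in the CDS (CPM, from 0) of the 6 initiation factors whose change between timepoints differed between the lines, in each mouse (orange ZT5, blue ZT12) with the mean and SD of 3 mice per group. In Ireb2+/+ mice the ZT12 points of all 6 genes lie above the ZT5 points, and in Aco1-/- mice those of Eif2s2, Eif3i, Eif4h and Eif4a1 lie below them. The 6 genes were chosen by this difference, so that their points are not a separate test of it.

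Within single genotypes, RPF changes between timepoints were counted in each. In Ireb2+/+ mice 16 of the 53 genes rose and none fell, 4 of the 5 elongation factors and 12 of the 44 initiation factors, where 7.53% of all genes changed and 3.63% rose. The smallest p-values were those of Eif3f, which rose by 1.203 (SE 0.18), Eif3m, by 0.56 (SE 0.11), Eef1g, by 1.36 (SE 0.22), Eif2s2, by 0.84 (SE 0.16), and Eif4a1, with the same uncertainty, by 0.79 (SE 0.16), with edgeR adjusted p-values from 0.000613 to 0.00367. Eef1a1 rose by 2.19 (SE 0.48, edgeR adjusted p = 0.0324) and Eef1b2 by 1.64 (SE 0.34, edgeR adjusted p = 0.0214) in the same mice. In Ireb2-/- mice 8 genes rose and none fell, where 5.73% of all genes changed and 2.67% rose, among them Eif3f, by 0.67, Eif2b1, by 0.50, Eif3m, by 0.41, Eif3i, by 0.40, and, subject to the uncertainty above, Eif4a1, by 0.85. In Aco1-/- mice 2 genes rose and 4 fell, where 12.1% of all genes changed, 5.31% upward and 6.78% downward. Those that fell were Eef1akmt1, by 1.01 (SE 0.28, edgeR adjusted p = 0.0251), Eif4e, by 0.92 (SE 0.29, 0.0423), Eif2s2, by 0.63 (SE 0.19, 0.0368), and Eif4h, by 0.45 (SE 0.14, 0.0422), and Eif2a and Eif3f rose by 0.74 and 0.63. In Aco1+/+ mice Eif2b3 rose by 0.82 and Eef1akmt1 fell by 0.94, where 6.64% of all genes changed, 3.46% upward and 3.18% downward. Whether the number of calls differs between genotypes was not tested.

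In RNA, edgeR called 0 of the 53 genes at the adjusted threshold within any genotype, where 7.05%, 5.15%, 2.29% and 2.77% of all genes changed in Aco1+/+, Aco1-/-, Ireb2+/+ and Ireb2-/- mice, and 17 genes had an unadjusted p under 0.05 in at least 1 genotype, as had 42.6% of all genes. DESeq2 called 3 at the adjusted threshold, Eef1a1, Eef2 and Eif4a1, where it called 6.85%, 4.96%, 3.1% and 3.24% of all genes in the same order. TE changed in 6 genes, all upward and in Ireb2+/+ mice, where 0.533% of all genes changed and 0.496% rose (0.0187% changed in Aco1+/+, 0.15% in Aco1-/- and 0.00935% in Ireb2-/- mice): Eef1g, by 1.31 (SE 0.30, edgeR adjusted p = 0.02), Eif3f, by 1.09 (SE 0.20, 0.00553), Eif2s2, by 1.05 (SE 0.27, 0.0461), Eif3h, by 0.71 (SE 0.17, 0.0339), Eif3k, by 0.66 (SE 0.17, 0.0442) and Eif3a, by 0.43 (SE 0.11, 0.0339). Eef1g TE was -1.17, -0.99 and -1.18 at ZT5 and -0.17, 0.21 and 0.61 at ZT12 in these mice, without overlap. None of the 6 was called when all 24 mice entered 1 fit.

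Loss of either iron regulatory protein left no translation factor gene past the threshold in RNA, RPFs or TE of the CDS in the main fits. The 5' UTR share is described separately below. In knockout against control at ZT5 and ZT12 in both lines, 0 of the 53 genes were called by edgeR in RNA, RPFs or TE, and 0 by DESeq2, which called between 0% and 0.654% of all genes in these comparisons. At an unadjusted p under 0.05 in any of the 4 comparisons there were 8, 23 and 13 genes, where 19.3%, 26.5% and 18.2% of all genes were, and the smallest edgeR adjusted p was 0.472 in RNA (Eif2s1), 0.0897 in RPFs (Eif4a3) and 0.347 in TE (Eif3e), all in Aco1-/- against Aco1+/+ mice at ZT12. With all 24 mice in 1 fit, 3 genes were called in RPFs, Eif2s1, Eif4a3 and Eif4e, and the share of all genes called in that fit is not given here. The background of the main fits was low as well, with 0%, 0.00935%, 0.00935% and 0.0187% of all genes called in RNA (Aco1 at ZT5 and ZT12, then Ireb2 at ZT5 and ZT12), 0.00935%, 0.299%, 0.0654% and 0.028% in RPFs, and 0.00935%, 0.0935%, 0.00935% and 0% in TE. In Ireb2-/- against Ireb2+/+ mice at ZT12, the RPF difference was below 0 in all 5 elongation factors (median -0.73, range -0.82 to -0.20), beside a median of -0.61 in ribosomal proteins and 0.02 in all genes, and none passed the threshold. No gene was called in TE for a difference between the genotypes in the change over time (7 at an unadjusted p under 0.05 in either line by edgeR, where 9.62% of all genes were, and 0 by DESeq2), where 0.028% of all genes were called in the Aco1 line and 0% in the Ireb2 line. The smallest adjusted p was that of Eef1g in the Ireb2 line (-1.83, SE 0.44, edgeR adjusted p = 0.295).

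Footprints upstream of the start codon were counted for the 18 genes of the set that had, on average, at least 10 RPF counts per library in the 5' UTR and at least 10 in the CDS. The 5' UTR share of 5' UTR plus CDS footprints, pooled over 24 mice, was highest in Eif1ad (43.2%), Eif2s2 (23.3%), Eif1 (22.1%), Eif5 (17.8%) and Eif4g2 (13.3%) and lowest in Eef2 (1.51%), Eif5b (1.89%), Eif3k (2.17%), Eef1b2 (2.86%) and Eif4g1 (4.46%), against a median of 8.15% over 2302 genes. This order was not the same in every group: the mean share of Eif1 was 47.5% in Aco1-/- mice at ZT12, above 38.9% in Eif1ad, but 8.41% in Ireb2-/- mice at ZT5, below 17.5% in Eif5 and 15.0% in Eif4g2. In RNA the corresponding shares were 37.7%, 31.3%, 24.2%, 14.2% and 5.04% for the first 5 genes, with a median of 12.9% over the 2302. The RPF share of Eif4g2 was thus 2.64 times its RNA share, a ratio above that of 96.7% of the genes, and lay between 7.52% and 23.9% in the single mice. Eef1a1 had 28.5% of its RNA reads but 8.23% of its footprints in the 5' UTR.

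Between timepoints, averaged over genotypes, 0 of the 18 genes changed in the 5' UTR share by limma, where 0.652% of 2302 genes did, and the nearest was Eif1 (0.78 on the log2 scale, SE 0.19, limma adjusted p = 0.0529). The shares of Eif1 were 51.3%, 58.1% and 33.2% in Aco1-/- mice at ZT12, 15.7%, 19.0% and 16.5% in the same genotype at ZT5, and 23.6%, 22.3% and 22.5% in Aco1+/+ mice at ZT12. The 3 Aco1-/- mice at ZT12 lay above all 21 others, which ranged from 7.36% to 23.6%. In these mice the share differed by 2.12 from ZT5 (SE 0.38, limma adjusted p = 0.000742) and by 1.60 from controls (SE 0.38, limma adjusted p = 0.00807), where 23.9% of all genes changed from ZT5 (1.17% upward, 22.8% downward) and 14.6% from controls (1.26% upward, 13.4% downward), with a median change of -0.60 and -0.39. Single exact two-sided permutation tests gave p = 0.1 for both, the smallest that 3 against 3 mice allow. The RNA share of Eif1, from 53.8 CDS and 17.2 5' UTR counts per library on average, was 40.0%, 31.0% and 50% in these mice and 55.3%, 21.8% and 12.8% in Aco1+/+ mice at ZT12, and its part in the RPF result was not tested. CDS RPFs of Eif1 were 46.8, 38.5 and 29.8 CPM in these mice and 39.7, 47.6 and 54.0 CPM in Aco1+/+ mice at ZT12, which overlap.

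In the same mice Eif5 was higher and Eif5b lower than in controls, where 1.26% of all genes were higher and 13.4% lower. The share of Eif5 was 27.8%, 32.1% and 17.2% in Aco1-/- mice at ZT12 and 13.2%, 11.4% and 18.3% in their controls (1.04, SE 0.35, limma adjusted p = 0.0463), with overlap and an exact two-sided permutation p of 0.2. Against 21.9%, 16.3% and 23.5% at ZT5 in the same genotype, its difference of 0.39 did not pass the threshold (SE 0.35, limma adjusted p = 0.436, exact permutation p = 0.4). The share of Eif5b, which joins the ribosomal subunits, was 1.17%, 1.09% and 0.52% against 2.02%, 3.67% and 2.44% (-1.50, SE 0.43, limma adjusted p = 0.0209), without overlap (exact permutation p = 0.1) and in the direction of most genes called. Against ZT5 in the same genotype Eif5b (-1.66), Eif5a (-1.12), Eif4g2 (-1.06), Eif1ad (-0.99) and Eif4g1 (-0.90) also fell, with limma adjusted p-values from 0.00661 to 0.0492. In that comparison 22.8% of all genes fell, and the median change of all genes was -0.60. No gene of the 18 was called in the other 6 comparisons of timepoints or genotypes, where 0% of all genes changed, or 0.0869% between timepoints in Ireb2-/- mice.

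**Figure D5:**
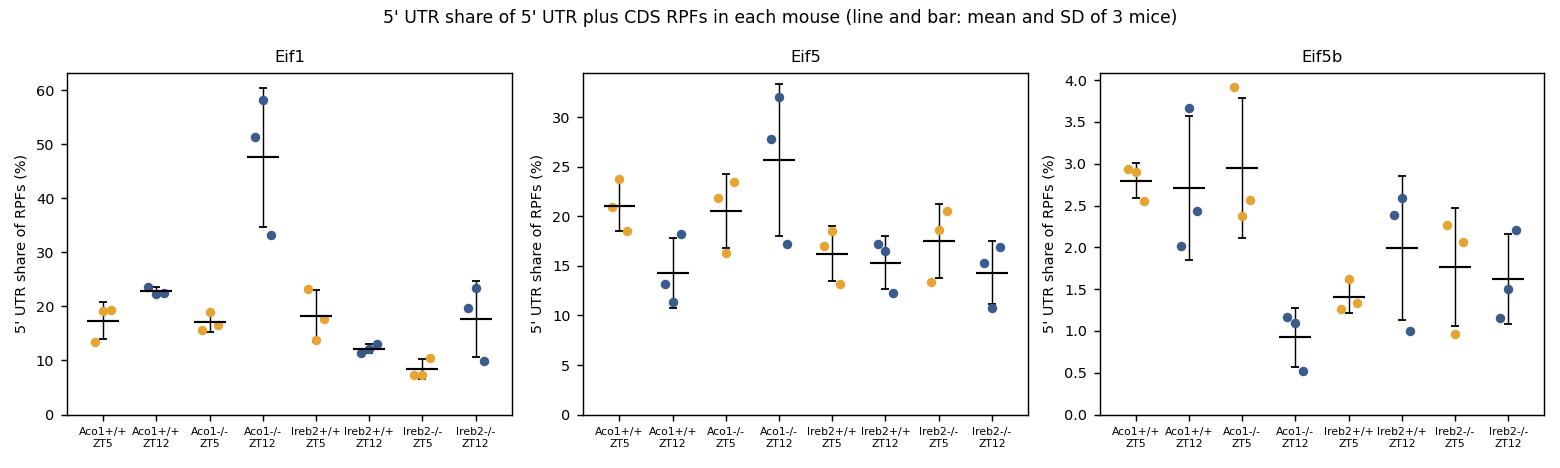
Share of 5' UTR plus CDS footprints that lie in the 5' UTR (percent, from 0) for Eif1, Eif5 and Eif5b in each mouse (orange ZT5, blue ZT12) with the mean and SD of 3 mice per group. For Eif1 the 3 Aco1-/- mice at ZT12 (33.2% to 58.1%) lie above all others, and for Eif5b the same 3 mice lie at or below 1.17%.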

How the data were processed

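Ribosome profiling and total RNA libraries from the same 24 mouse livers were analysed as counts. Per the labels and methods, the authors trimmed reads with cutadapt 3.5, filtered them by quality and size, removed rRNA and tRNA reads with Bowtie2, aligned the rest with STAR 2.70f to the mouse genome (Ensembl) and deposited raw read counts per gene and region, 1 file per sequencing run. The counting tool and its use of strand are not given in the sources used here. The files carry no header, so the columns were read as 5' UTR, CDS and 3' UTR from their values, and 1 further count column was not identified. Runs of a library were summed: over 29 pairs they differed by a chi-square per degree of freedom of 0.97 to 1.13, against 2.46 to 58.6 between mice of a group (48 pairs). Replicates are separate mice.

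CDS counts were scaled by the upper quartile over 48 libraries and filtered with filterByExpr (minimum count 10, total 15), which left 10696 genes. edgeR 4.0.16 in R 4.3.3 gave quasi-likelihood tests of RNA and RPFs by group, and of TE in 1 model of both library kinds with the mouse as a block, with Benjamini-Hochberg adjustment over all genes and a threshold of 0.05. The 5' UTR share was tested with limma 3.58.1 on log2 of 5' UTR over CDS RPF counts (0.5 added to each, mean of at least 10 RPF counts in each region, 2302 genes). TE per mouse used counts plus 0.5. DESeq2 1.42.0, TMM scaling, no filter, the first run, each mouse left out, the replicate number as a block, all 24 mice in 1 fit, limma on TE per mouse, at least 30 counts, a pseudocount of 1 and a mean in place of the median were alternatives. The comparison of lines, the relations with library measures and the sum of all columns were added after values were seen. Summaries used Python 3.11.15, NumPy 2.4.6, pandas 2.3.3 and SciPy 1.17.1, and figures Matplotlib 3.10.9. Tests were checked on simulated counts.

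The genes and lists were chosen with earlier results of these data known. Genes were named if they passed the threshold (up to 10 per direction and measure for the averaged timepoint comparison, up to 5 for each other), if they were on a list of core subunits, if they were among the 5 highest or lowest in TE or 5' UTR share, or if they belonged to a near-identical pair or fell below the filter. Same-numbered mice were not paired: the correlation of their deviations from group means over genes exceeded 0.1 in 2 of 36 pairs in RNA, 5 of 36 in RPFs and none in TE.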

Additional observations from a re-analysis of the deposited data

Results flagged for a closer look

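The change in RPFs from ZT5 to ZT12 differed between the Ireb2 and the Aco1 line in 6 initiation factors, by edgeR's test of the difference itself with adjustment over all genes. The difference, Ireb2 minus Aco1 on the log2 scale, was 0.985 in Eif4a1, 0.909 in Eif2s2, 0.740 in Eif3h, 0.550 in Eif3i, 0.547 in Eif3m and 0.405 in Eif4h, and in TE it was 1.25 in Eif2s2. The call for Eif4h was lost in 24 of 29 alternative settings and the TE call for Eif2s2 in 17 of 29. Line and library series cannot be told apart in this comparison.

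Counts also appeared outside the CDS column used for the comparisons. The unidentified column held 1350 RNA counts per library for Eif4a1, 4259 for Eif4a2 and 2156 for Eif4g2. Eif3j1, with 0 CDS counts in RNA, had 33.7 RNA counts per library in its 3' UTR.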

How the results depend on the processing

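Counts are of the 53 genes past the threshold. In RNA, the averaged timepoint comparison gave 6, and 11 with all columns summed. RNA within genotypes gave 0, but 1 with the first run, 2 with all 24 mice in 1 fit, 2 with all columns and 3 with DESeq2, and 0 to 4 with a mouse left out (4 without Aco1-/- ZT12 replicate 2). Knockout comparisons of RNA, RPFs and TE gave 0, but in RPFs 3 with all 24 mice in 1 fit, and with a mouse left out 0 to 1 in RNA (1 without Aco1-/- ZT12 replicate 2), 0 to 4 in RPFs (4 without Aco1-/- ZT12 replicate 3) and 0 to 1 in TE (1 without the same mouse). In TE, the averaged comparison gave 1, but 0 with the first run or limma per mouse, 7 with all columns, 6 with DESeq2 and 0 to 7 with a mouse left out (7 without Ireb2+/+ ZT5 replicate 3, 0 for 11 mice). TE within genotypes gave 6, but 2 with the first run, 0 with all 24 mice in 1 fit or limma, 4 with DESeq2 and 1 to 10 with a mouse left out (1 without Ireb2+/+ ZT12 replicate 2, 10 without Ireb2+/+ ZT5 replicate 3). The difference between lines gave 6 in RPFs, with 5 to 10 when a mouse was left out (10 without Aco1-/- or Aco1+/+ ZT5 replicate 3), and 1 in TE, but 0 with the first run, 2 with all columns and 0 to 3 with a mouse left out (0 for 16 mice, 3 without Aco1-/- ZT12 replicate 3). The 5' UTR share, averaged over genotypes, gave 0, but 1 (Eif1) with at least 30 counts or a pseudocount of 1, and 0 to 1 with a mouse left out. The RPF change of Eif4a1 turned to -0.96 with all columns. The adjusted p of the TE change of Eef1d ranged from 0.00173 to 0.239 over 31 settings. With the replicate number as a block, a pairing that the labels do not state, the count stayed within 1.5 times elsewhere and was 4 in TE averaged over genotypes (Eef1a1, Eef2, Eif3f and Eif4b), 4 in TE within genotypes and 9 in RPFs between lines. Leaving out a mouse kept the TE difference between elongation and initiation factors between -0.85 and -0.77 and its change between 0.736 and 0.903. Over single genes and settings, 1221 values kept their direction and side of the threshold, 155 lost and 38 gained a call, and 1 reversed. The cause was not tested.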
